A study of Mus musculus with 8 samples.

Results

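Inflammasomes are protein complexes of the cytosol in which a sensor gathers an adaptor and an inflammatory caspase, and the 8 genes described here code for the parts of this system and for the pore that ends it. They were chosen by symbol: the sensors Nlrp3, Nlrc4 and Aim2, the adaptor Pycard, the inflammatory caspases Casp1 and Casp4, the pore-forming gasdermin Gsdmd, and Txnip, the thioredoxin-binding protein that has been tied to NLRP3 activation. All 8 were found, once each, among the 17518 genes of the deposited table, and all 8 were among the 11911 genes with enough counts to be tested. Expression was measured by RNA sequencing in cultures of MH-S, a virus-transformed mouse alveolar macrophage line. There were 3 groups: a control given PBS, the buffer alone (n = 3), cells given lipopolysaccharide (LPS, the cell wall component of Gram-negative bacteria that TLR4 senses; n = 2), and LPS+RCMNs (n = 3), cells given the particles labelled RCMNs together with LPS. Per the series' design text, RCMNs were used at 1 μg/mL with LPS at 100 ng/mL; no exposure time was found in these sources, nor a dose for the LPS group. Every group is the same line and a reduced model of the lung macrophage, and nothing in the labels ties a replicate to a culture of its own. The p-values therefore measure the spread between these libraries, which may be technical.

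In macrophages the pathway works in steps. Priming through TLR4 and NF-κB raises the transcripts of some components, after which a second signal lets NLRP3, NLRC4 (for bacterial flagellin and secretion systems, through NAIP proteins) or AIM2 (for cytosolic DNA) recruit PYCARD, also called ASC, and caspase-1. Caspase-1 matures IL-1β and IL-18 and cuts gasdermin D, whereas the product of mouse Casp4, known as caspase-11, binds LPS in the cytosol and cuts gasdermin D directly in the non-canonical route. Most of these steps act on proteins, which were not measured here.

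The libraries held 18.6 to 21.2 M counts. Macrophage genes were abundant throughout (7 of 7 listed markers detected, summed level 4049 to 6755 CPM, counts per M counts), but the tissue-resident alveolar markers Siglecf, Car4, Chil3 and Pparg stood below 1 CPM in every library and Marco at or below 1.32 CPM. Of the 8 listed alveolar markers 7 were in the table, and they summed to 18.7 to 27.0 CPM in control, 102.6 to 107.7 in LPS and 68.6 to 103.1 in LPS+RCMNs, most of it Fabp4 and Itgax. Haemoglobin transcripts summed to 4328 and 5590 CPM in the LPS libraries and to 0.477 to 33.5 CPM in the other 6, and the 6 listed red-cell markers together reached 4359 and 5623 CPM in LPS, 0.824 to 20.7 in control and 0.658 to 34.1 in LPS+RCMNs. Markers of neutrophils, lymphocytes, epithelium and fibroblasts summed to at most 5.33, 0.606, 0.121 and 0.424 CPM, each highest in LPS. Within their groups, 2 libraries were unlike the others, control replicate 1 and LPS+RCMNs replicate 2: counts differed by a chi-square per degree of freedom of 36.4 to 48.7, against 1.95 and 2.88 for the remaining pairs of those groups and 13.0 for the LPS pair. In LPS against control, log2 fold change also ran with gene length (Spearman rho -0.584 over 11911 genes, which are not independent replicates), with a median of 1.25 in the shortest 10% of genes and -1.0 in the longest 10%. The trend was the opposite in LPS+RCMNs against LPS (rho 0.591), and in LPS+RCMNs against control it was slight (rho -0.088). The effective transcript length implied by the deposited values was 1339 bases for Casp4, 1464 for Casp1, 1687 for Gsdmd and 2086 for Pycard, all below the median of 2827, and 2751 for Txnip, 2900 for Aim2, 3839 for Nlrc4 and 3900 for Nlrp3. The part of the length trend, of the red-cell transcripts and of the libraries that stood apart in the results below was not tested, but values with the trend removed or without these libraries are given beside the calls they change. In bulk RNA, fewer cells with a transcript and less of it per cell cannot be told apart.

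Levels between genes are compared per length, as the FPKM that the authors deposited (fragments per kb of transcript and M reads). In control, Txnip was the most abundant of the 8 genes (230.1 ± 74.0 FPKM, SD, n = 3), followed by Nlrp3 (50.0 ± 16.8), Casp1 (43.6 ± 4.3), Aim2 (33.3 ± 5.2), Gsdmd (27.4 ± 2.8), Pycard (14.8 ± 2.6), Nlrc4 (4.32 ± 1.3) and Casp4 (3.39 ± 0.57). Neighbours in this order whose libraries overlapped were Nlrp3 and Casp1, Casp1 and Aim2, Aim2 and Gsdmd, and Nlrc4 and Casp4. For Nlrp3 and Casp1 the overlap came from control replicate 1 (30.6 and 38.6 FPKM). In control replicates 2 and 3, Nlrp3 (60.5 and 58.7) stood above Casp1 (46.3 and 45.85). The caspase that senses LPS was thus the scarcest of the 8 in unstimulated cells by its mean, although not separated from Nlrc4.

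In LPS, Txnip still led (80.3 ± 5.6 FPKM, n = 2), but 2 pairs that overlapped in control stood in the reverse order and apart. Casp1 stood second (58.7 ± 0.32), ahead of Nlrp3 (31.7 ± 2.4), and Casp4 (9.34 ± 1.1) stood above Nlrc4 (1.74 ± 0.078), now the scarcest. Between them were Gsdmd (21.6 ± 2.5), Aim2 (21.1 ± 4.5) and Pycard (13.5 ± 0.71), and Gsdmd and Aim2 were the one neighbouring pair that overlapped. In both reversed pairs the gene that moved up was the shorter one. Casp1 has 1464 bases against 3900 for Nlrp3, and Casp4 has 1339 against 3839 for Nlrc4. Whether the length trend between LPS and control had a part in these reversals was not tested. In LPS+RCMNs, Nlrp3 (43.0 ± 10.9 FPKM, n = 3) and Casp1 (41.4 ± 1.6) again came next to each other and overlapped, Txnip reached 140.4 ± 18.0, and no other neighbours overlapped. Aim2 (29.5 ± 2.1), Gsdmd (23.3 ± 0.36) and Pycard (20.8 ± 1.9) followed, and Casp4 (4.57 ± 0.13) stayed above Nlrc4 (3.37 ± 0.61).

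**Figure D1:**
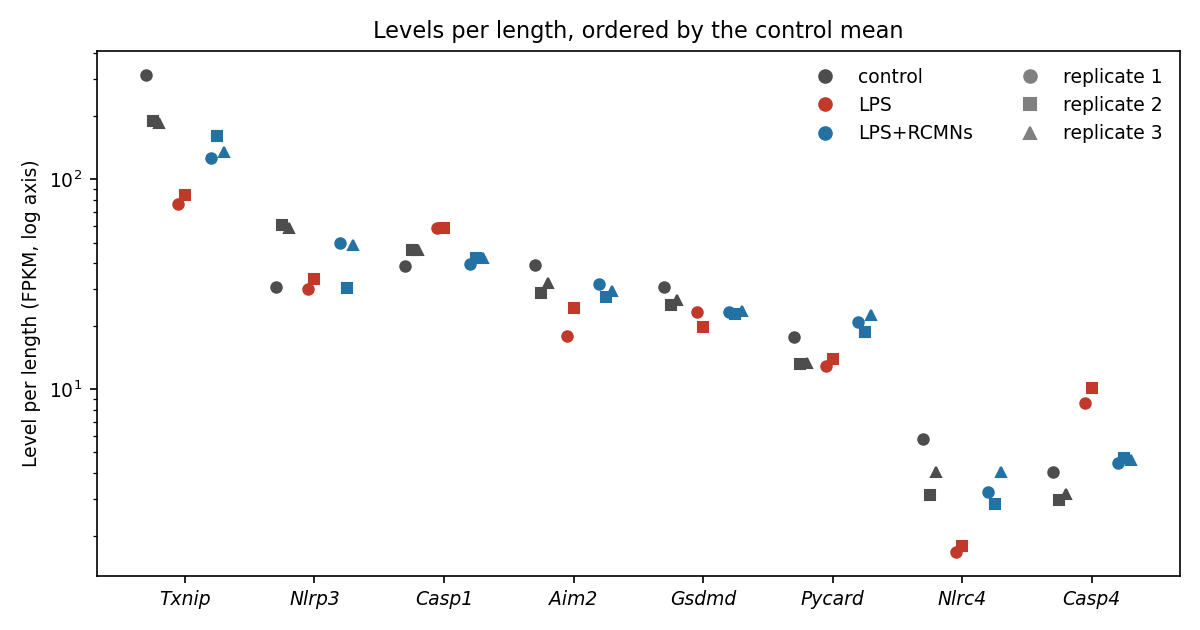
Level per length of the 8 genes in each library (FPKM on a log axis), ordered by the control mean, with groups by colour and replicates by symbol. Txnip lies highest in every group, and Casp4 is the gene whose LPS libraries (8.59 and 10.1 FPKM) stand farthest above its control libraries (2.96 to 4.04).

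The level of each gene in each library is given next in CPM after TMM scaling, which is meant to make libraries comparable for 1 gene. The TMM factors were 0.779 and 0.803 in LPS and 1.05 to 1.13 in the other libraries. Whether the scaling achieved this for the LPS libraries was not tested. Among the sensors, Nlrp3 stood at 106, 216 and 209 CPM in control replicates 1 to 3, at 150 and 162 in the LPS libraries, and at 183, 112 and 181 in LPS+RCMNs replicates 1 to 3. The lowest libraries of the control and LPS+RCMNs groups were those that stood apart, and both LPS values lay inside the control range. Nlrc4 was at 19.7, 11 and 14.1 CPM in control, 8.36 and 8.60 in LPS and 11.8, 10.1 and 14.9 in LPS+RCMNs, so that both LPS libraries were below all others. Aim2, the DNA sensor, ran from 64.1 to 98.9 CPM over all 8 libraries (98.9, 78.4 and 84.2 in control, 64.1 and 83.0 in LPS, 88.7, 75.6 and 85.2 in LPS+RCMNs), and its groups overlapped.

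Pycard, the adaptor that links sensor and caspase, was at 32.7, 25.3 and 25.2 CPM in control, 34.7 and 36.3 in LPS and 41.3, 37.0 and 44.8 in LPS+RCMNs. No library of 1 group entered the range of another, with control lowest and LPS+RCMNs highest. Casp1 was at 49.9, 62.0 and 61.2 CPM in control, 110 and 107.5 in LPS and 55.2, 58.5 and 58.8 in LPS+RCMNs. Its 2 LPS libraries stood above all others, and every LPS+RCMNs library lay within the control range. Casp4 showed the same separation of LPS, at 4.77, 3.49 and 3.90 CPM in control (110, 75 and 84 counts), 14.9 and 16.8 in LPS (246 and 277 counts) and 5.40, 6.03 and 5.86 in LPS+RCMNs (110, 119 and 122 counts). For Casp4 the LPS+RCMNs libraries also stood above all 3 controls.

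Gsdmd, the substrate of both caspases, varied little: 45.7, 38.9 and 40.8 CPM in control, 51.1 and 41.6 in LPS and 37.1, 36.1 and 37.9 in LPS+RCMNs. The LPS libraries overlapped with control, and the LPS+RCMNs libraries lay below both. Txnip was at 766, 475 and 466 CPM in control, 269.9 and 289 in LPS and 330.1, 417 and 351 in LPS+RCMNs. Its 3 groups did not overlap, with LPS lowest and LPS+RCMNs between LPS and control, and the highest library of all was control replicate 1.

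**Figure D2:**
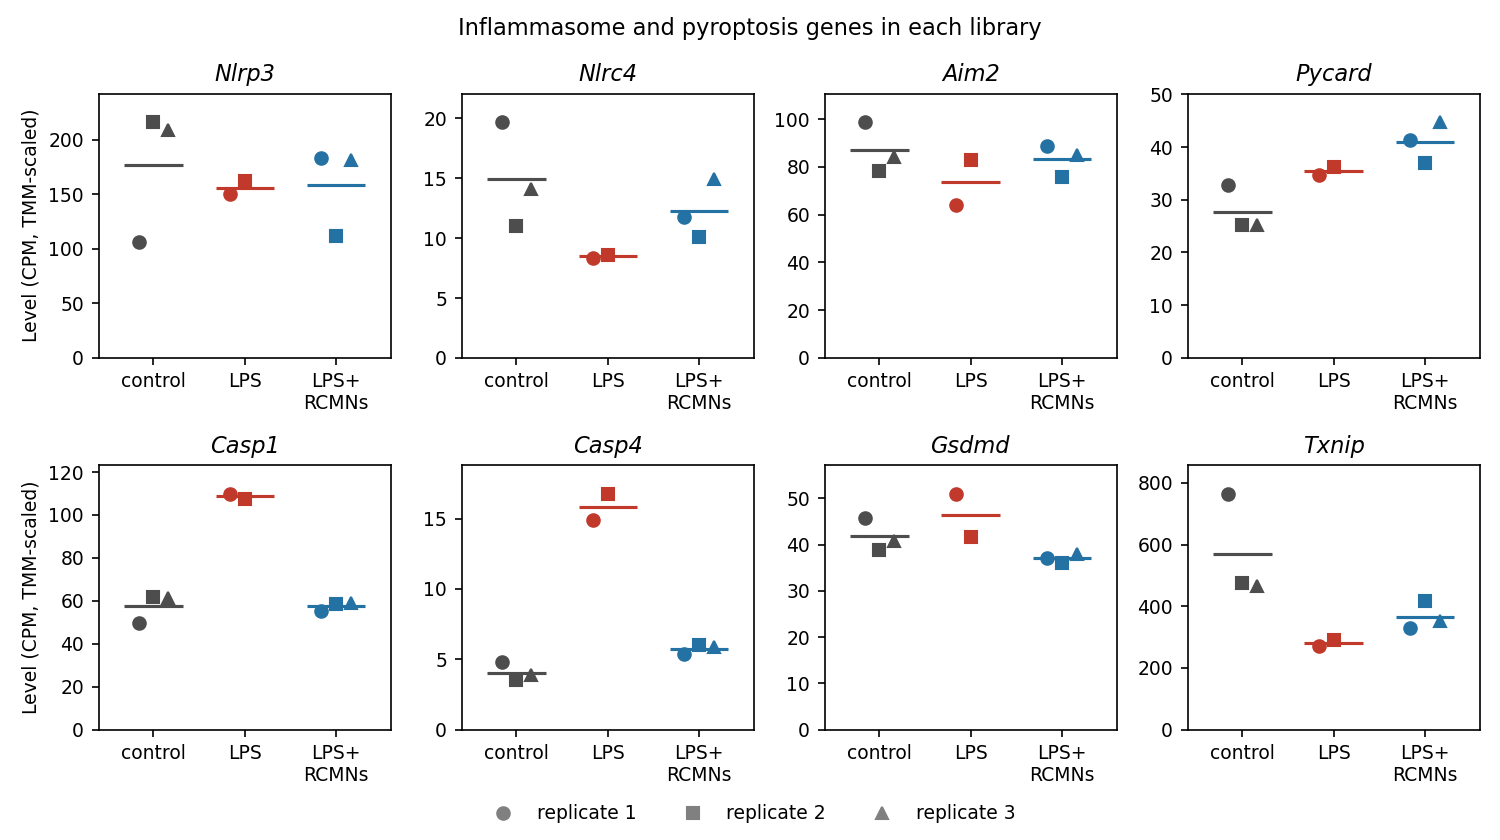
CPM of each gene (linear axes from 0) in the 8 libraries, with 1 symbol per replicate number and a bar at each group mean. Casp1 and Casp4 rise above every other library in both LPS libraries, while the Nlrp3 control and LPS+RCMNs groups each hold 1 low library.

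The sequences upstream of the caspase genes and Txnip are shown because Casp1 and Casp4 are neighbours that both stood highest in the LPS libraries. Txnip has a known nutrient-responsive element. Casp1 (gene ID 12362, chr9:5298517-5307281, + strand) and Casp4 (gene ID 12363, chr9:5308849-5336791, + strand) lie head to tail on mouse chromosome 9, with 1567 bases between the end of Casp1 and the start of Casp4. The other members lie elsewhere: Nlrp3 (216799) at chr11:59541569-59566955, Nlrc4 (268973) at chr17:74426255-74459144, Aim2 (383619) at chr1:173349547-173466040, Pycard (66824) at chr7:127991373-127993867, Gsdmd (69146) at chr15:75862144-75867408 and Txnip (56338) at chr3:96557957-96561857. Coordinates and sequences are those of RefSeq for GRCm38.p6, the assembly that mm10 names. Aim2, Pycard and Txnip overlap an annotated gene on the other strand (Cadm3, Gm45205 and Gm15441), and no source used here says whether counting used strand. Nlrc4 overlaps a processed pseudogene, CT033749.1, on its own strand. Cadm3 itself had 0 counts in 7 libraries and 1 in LPS replicate 1. Of the 8 members, 7 had an upstream sequence in the RefSeq promoter table and Gsdmd had none. In the 250 bases before the annotated start sites, 6 motifs were searched on both strands. They were the κB form GGGNNNTTCC, the interferon-stimulated element GAAANNGAAA, the GAS site TTCNNNGAA, the E-box CACGTG, the TATA form TATANA and the carbohydrate response element of Txnip. Capitals below mark the κB matches before Casp4 and the Txnip element.
Casp4 chr9:5308599-5308848, + strand: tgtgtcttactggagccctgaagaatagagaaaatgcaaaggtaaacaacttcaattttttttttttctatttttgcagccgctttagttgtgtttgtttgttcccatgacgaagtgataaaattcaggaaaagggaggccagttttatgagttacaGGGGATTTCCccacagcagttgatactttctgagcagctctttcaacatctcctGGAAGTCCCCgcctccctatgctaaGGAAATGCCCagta
Casp1 chr9:5298267-5298516, + strand: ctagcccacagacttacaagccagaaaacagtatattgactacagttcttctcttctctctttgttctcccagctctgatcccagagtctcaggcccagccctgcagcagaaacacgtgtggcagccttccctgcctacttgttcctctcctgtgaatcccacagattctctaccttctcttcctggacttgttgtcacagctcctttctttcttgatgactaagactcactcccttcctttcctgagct
Txnip chr3:96557707-96557956, + strand: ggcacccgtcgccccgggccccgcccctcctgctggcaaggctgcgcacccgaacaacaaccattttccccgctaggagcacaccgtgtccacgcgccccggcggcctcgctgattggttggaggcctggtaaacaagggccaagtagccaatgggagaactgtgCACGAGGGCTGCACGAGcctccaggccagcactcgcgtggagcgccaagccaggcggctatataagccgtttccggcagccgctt

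The window before Casp4 held 3 matches to the κB form, GGGGATTTCC, GGAAGTCCCC and GGAAATGCCC, which began 93, 39 and 14 bases before the start site. A match of this form occurred in 4.65% of the 32851 promoter windows of the table, and among the members in the windows of Casp4 alone. The window before Casp1 held no κB, interferon or GAS match and 1 E-box 137 bases before the start, a motif found in 6.02% of windows. The interferon and GAS forms, in 2.98% and 7.02% of windows, matched none of the members' windows. Before Txnip, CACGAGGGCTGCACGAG lay 85 bases and a TATA form 27 bases upstream (the TATA form occurs in 22.6% of windows). A TATA form also lay 15 bases before the Nlrp3 start site at chr11:59541569. The Txnip element was searched by letters known from this promoter, so that its single match among all windows is a location and not a finding. Matches describe letters and show neither binding nor a cause.

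The first comparison asks how the pathway's transcripts differed between the LPS and control libraries. The LPS libraries also held the red-cell transcripts, and a part of whatever brought these cannot be told apart from that of LPS. In LPS, the 2 inflammatory caspases were higher and Txnip and Nlrc4 lower, while Nlrp3, Aim2, Pycard and Gsdmd did not pass the test. Casp4 was 3.90-fold higher (log2 fold change 1.96 ± 0.17 SE, edgeR adjusted p = 1.42e-05) and Casp1 1.89-fold higher (0.92 ± 0.11, adjusted p = 7.845e-05). Txnip was 2.04-fold lower (-1.03 ± 0.22, adjusted p = 0.00251) and Nlrc4 1.76-fold lower (-0.82 ± 0.26, adjusted p = 0.0207). Thus 2 of 8 members were called higher and 2 lower, in a comparison where 31.4% of all genes tested were called higher and 32.1% lower (63.4% in all), so the share of members called was no larger than that of genes at large. The median log2 fold change of the 8 was -0.02, against -0.04 over all genes tested.

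The 4 members that did not pass differed in the width of their intervals. Pycard was 0.35 ± 0.14 higher on the log2 scale (adjusted p = 0.0528), with both LPS libraries above all controls, and was called higher in 6 of 21 alternatives. These included DESeq2 (0.39, adjusted p = 0.0355), median-ratio size factors (adjusted p = 0.0407 by edgeR), and edgeR without control replicate 1 (0.55, adjusted p = 0.00271) or without LPS+RCMNs replicate 2 or 3 (adjusted p = 0.029 and 0.0456). The 95% interval of Gsdmd ran from -0.12 to 0.41 (log2 fold change 0.15, adjusted p = 0.302) and that of Aim2 from -0.57 to 0.08 (-0.25, adjusted p = 0.162). Nlrp3, the sensor named most often as a primed gene, had a log2 fold change of -0.18 ± 0.30 (adjusted p = 0.616), and its interval, -0.87 to 0.50, was the widest of the 8, with control libraries from 106 to 216 CPM. Without both libraries that stood apart, Nlrp3 was lower in LPS (-0.40, adjusted p = 0.000182), and Pycard (0.54, adjusted p = 9.1e-05) and Gsdmd (0.27, adjusted p = 0.026) were called higher.

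**Figure D3:**
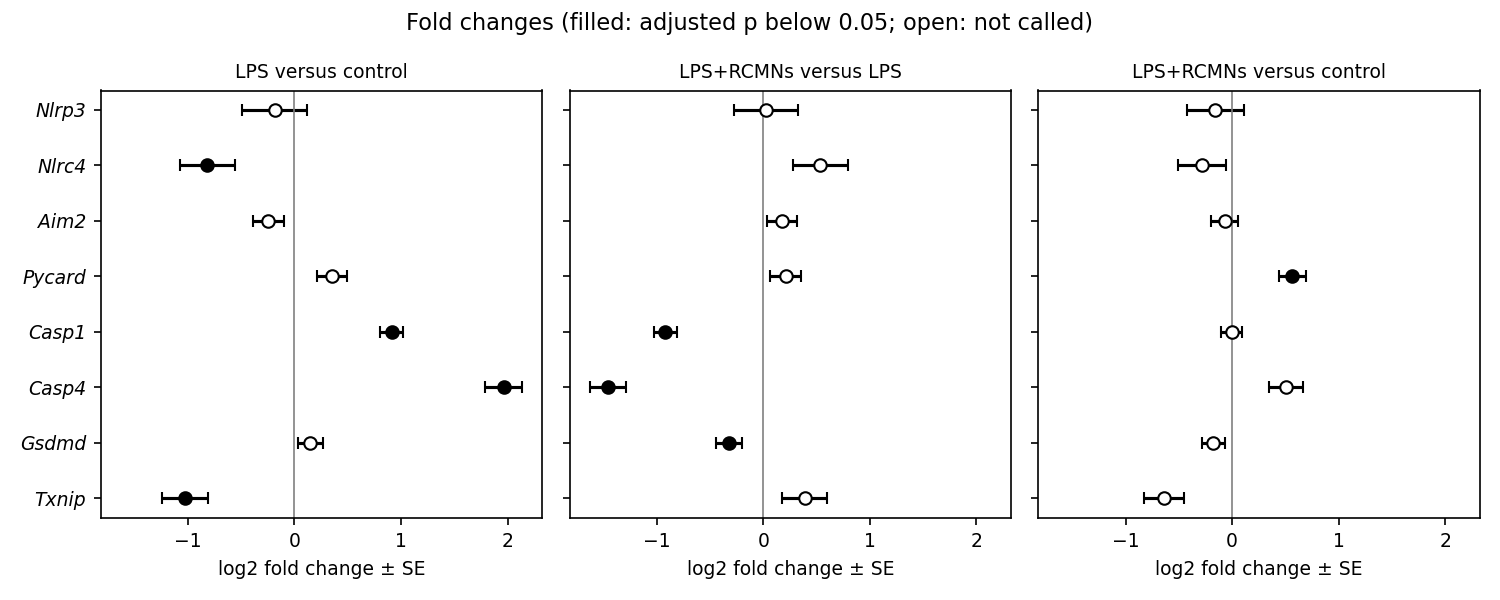
Log2 fold change of each gene with its standard error in the 3 comparisons, filled where the adjusted p of edgeR's quasi-likelihood test is below 0.05. Casp4 and Casp1 lie to the right in LPS versus control and to the left by 1.46 and 0.92 in LPS+RCMNs versus LPS, and Pycard is the filled point in LPS+RCMNs versus control.

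These calls changed unequally with the scale and with the length corrections. Casp4 was called higher, and Txnip lower, under all 21 alternative analyses, with log2 fold changes of 0.88 to 2.15 and -1.97 to -0.70. Among these, the stricter filter kept genes with at least 5 FPKM in at least 2 libraries. Casp4 passed it only through its LPS libraries (8.59 and 10.1 FPKM), so that setting adds no support for Casp4. Casp1 was called in 17 of 21: with the length trend removed it was 0.30 (adjusted p = 0.0547), with a surface of length and level removed 0.17, with a fold minimum of 1 (log2) it fell just short at 0.92, and on log2(TPM + 1) it was -0.07. The median of all genes on that TPM scale was itself -0.79 (-0.33 on log2(FPKM + 1)), and relative to the median of all genes Casp1 was 0.72 higher on TPM, 0.75 on FPKM and 0.96 on the count scale. Casp4 was 1.66, 1.57 and 2.0 above the same medians. On TPM and FPKM, 1 is added before the log, which narrows the difference for a gene as scarce as Casp4 (3.39 FPKM in control). The count scale has no such added 1. Gsdmd changed sign: it was -0.33 on FPKM, -0.83 on TPM, and -0.37 with length and level removed, each past the threshold, and within 0.05 of the all-gene median on both per-length scales. Pycard was -0.60 on TPM (adjusted p = 0.00491), 0.19 above the median of all genes there. Aim2 was called lower on FPKM (-0.64, adjusted p = 0.00724 by limma) and TPM (-1.14, adjusted p = 0.000184), and Nlrp3 lower on TPM (-1.08, adjusted p = 0.0141). Relative to the all-gene medians these were -0.31, -0.36 and -0.30. The call for Nlrc4 ended without control replicate 1 (-0.51, adjusted p = 0.0592), without LPS replicate 1 (-0.76, adjusted p = 0.122), without LPS replicate 2 (-0.79, adjusted p = 0.110), with the length trend removed (-0.45) and with length and level removed (-0.32).

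**Figure D4:**
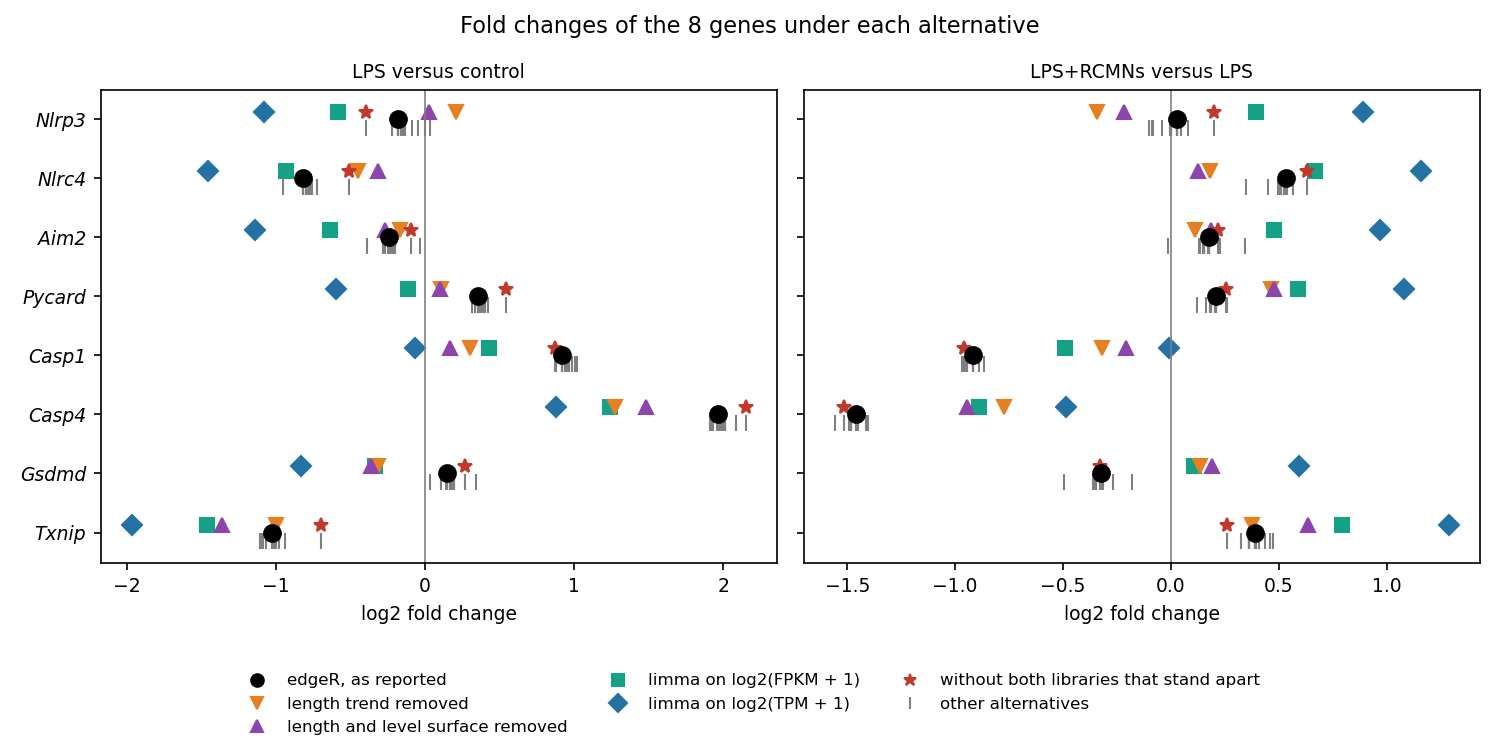
Log2 fold change of the 8 genes in 2 comparisons as reported (black) and under the 21 alternatives, with the per-length scales, the length corrections and the fit without both libraries that stood apart in colour. Casp4 stays on 1 side of 0 in both panels, whereas Gsdmd crosses 0 in both.

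The second comparison asks how the transcripts differed when RCMNs were given with LPS. Against LPS, Casp4 was 2.75-fold lower (-1.46 ± 0.17, adjusted p = 8.83e-05), Casp1 1.89-fold lower (-0.92 ± 0.11, adjusted p = 9.155e-05) and Gsdmd 1.25-fold lower (-0.32 ± 0.12, adjusted p = 0.0406). No member was called higher, so 3 of 8 were called lower and 0 of 8 higher, with 29.5% of all genes tested called lower and 29.8% higher (59.3% in all). Before adjustment, none of the 5 uncalled members had p below 0.05 either, while limma on log2(FPKM + 1) called 4 members higher. The median over the 8 was 0.10, and over all genes tested 0.03. Txnip was 0.39 ± 0.21 higher (adjusted p = 0.14) and Nlrc4 0.53 ± 0.26 higher (adjusted p = 0.104), with all 3 LPS+RCMNs libraries above both LPS libraries for each gene. Pycard was 0.21 ± 0.14 higher (adjusted p = 0.233), Aim2 0.18 ± 0.14 higher (adjusted p = 0.311) and Nlrp3 differed by 0.03 ± 0.30 (adjusted p = 0.947).

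The lower level of Casp4 was called in all 21 alternatives (-1.56 to -0.49), of which the stricter filter again let Casp4 in only through the LPS libraries. That of Casp1 was called in 17, and lost with the length trend removed (-0.32, adjusted p = 0.0507), with length and level removed (-0.21), with the fold minimum and on TPM (-0.01). On the per-length scales the median of all genes moved to 0.27 (FPKM) and 0.71 (TPM), and relative to it Casp1 stood at -0.77 and -0.72. Pycard, not called on the count scale, was called higher with the length trend removed (0.47, adjusted p = 0.0295) and with length and level removed (0.48, adjusted p = 0.0278). On log2(FPKM + 1), where the all-gene median was 0.27, the 4 members called higher were Txnip (0.79), Nlrc4 (0.67), Pycard (0.59) and Aim2 (0.48). The Gsdmd call was kept in 8 of 21 alternatives. It was 0.11 on FPKM, 0.14 and 0.19 with the length corrections, and 0.59 on TPM (adjusted p = 0.00133), where the sign was opposite and the call the reverse. Leaving out LPS replicate 1, whose Gsdmd level was the highest of all libraries, brought it to -0.18 (adjusted p = 0.301), and leaving out control replicate 3 or any LPS+RCMNs library gave adjusted p of 0.0513 to 0.0874. Without control replicate 1, Nlrc4 (0.51, adjusted p = 0.0468) and Txnip (0.36, adjusted p = 0.0167) were called higher. Without both libraries that stood apart, 4 members were called higher: Nlrc4 (0.63), Txnip (0.26), Pycard (0.25) and Nlrp3 (0.20).

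The third comparison sets LPS+RCMNs beside control. Pycard was the single member called, 1.48-fold higher (0.56 ± 0.13, adjusted p = 0.0308), so 1 of 8 was called higher and 0 of 8 lower, with 7.56% of all genes tested called (4.33% higher and 3.23% lower). Casp1 did not differ beyond its error (0.00 ± 0.10, 95% interval -0.23 to 0.22, adjusted p = 0.988). Casp4 was 0.51 ± 0.16 higher (adjusted p = 0.0981) and Txnip lower at -0.64 ± 0.19 (adjusted p = 0.0757), each with groups that did not overlap. Nlrp3 (-0.16), Nlrc4 (-0.28), Aim2 (-0.07) and Gsdmd (-0.17) had adjusted p of 0.370 to 0.804. Before adjustment, p was below 0.05 for Casp4 (0.0122) and Txnip (0.00762), and DESeq2 called Txnip lower (-0.64, adjusted p = 0.0137).

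The call for Pycard held in 10 of 21 alternatives and stayed between 0.47 and 0.80 in all of them. It was lost without LPS replicate 1 or 2 (adjusted p = 0.0559 and 0.0557), libraries outside this comparison, and without control replicate 2 or 3 or LPS+RCMNs replicate 1 or 3 (0.0987 to 0.122). Without control replicate 1, Casp4 was called higher too (0.67, adjusted p = 0.0329). Without both libraries that stood apart, Pycard and Casp4 (0.63, adjusted p = 0.0137) were called higher and Nlrp3 (-0.20, adjusted p = 0.0411) and Txnip (-0.44, adjusted p = 0.000638) lower. The comparisons share libraries in pairs, so their values are set side by side and not correlated.

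The libraries that stood apart moved the members by different amounts. Control replicate 1 differed from the mean of the other 2 controls by -1.01 on the log2 scale for Nlrp3, and lay above it by 0.70 for Txnip, 0.64 for Nlrc4, 0.37 for Pycard and 0.33 for Casp4. LPS+RCMNs replicate 2 lay below the other LPS+RCMNs libraries for Nlrp3 (-0.70), Nlrc4 (-0.37) and Pycard (-0.21) and above them for Txnip (0.29). Casp1 (0.04), Gsdmd (-0.05) and Casp4 (0.09) were within 0.1 of the others there. Nlrp3 was low and Txnip high in both libraries, and for Nlrp3 the remaining pairs of the 2 groups differed by 0.05 and 0.02.

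Ratios within a library do not depend on its scaling, although they can still carry a bias by length. Casp4 and Gsdmd are near each other in length (1339 and 1687 bases). Per 100 FPKM of Gsdmd there were 12.3 ± 0.81 of Casp4 in control (n = 3), 43.9 ± 10 in LPS (n = 2) and 19.7 ± 0.74 in LPS+RCMNs (n = 3). The libraries of the 3 groups did not overlap, at 11.8 to 13.2, 36.8 and 51.0, and 19.0 to 20.5. Casp4 rose relative to its neighbour Casp1 as well, from 7.91 ± 2.2 per 100 in control to 15.9 ± 1.7 in LPS, with 11 ± 0.14 in LPS+RCMNs, where the LPS libraries again stood above the rest. Casp1 per 100 of Gsdmd was 161 ± 30.4, 274 ± 33.2 and 178 ± 7.6. The adaptor showed another order, with 53.6 ± 4.3 of Pycard per 100 of Gsdmd in control, 63.0 ± 10.6 in LPS and 89.2 ± 6.9 in LPS+RCMNs, and its LPS+RCMNs libraries (82.2 to 96.0) were above all others. These ratios are given without a test.

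The genes whose profile over the 8 libraries was most like a member's were found by Pearson's r of log2 CPM among 7959 other genes with a mean of at least 5 FPKM, as a description. For Casp1 they were Cep63, Tsr2 and Pak1ip1 (r of 0.999, 0.997 and 0.997), and 894 genes had r above 0.95. For Casp4 they were Tmem256, Surf1 and Ggct (0.997, 0.994 and 0.993), with 609 genes above 0.95. A profile set by 2 high LPS libraries was thus common in the table. The neighbours Casp1 and Casp4 had r of 0.899 with each other, below the 0.95 of these counts. Txnip was most like Gatd1, Ogfrl1 and Sept10 (0.993, 0.987 and 0.985; 41 genes above 0.95), Gsdmd like Aldh2, Amz2 and Necap2 (0.973, 0.963 and 0.962; 7 genes), and Nlrp3 like Tsc22d1, Ewsr1 and Gclc (0.986, 0.979 and 0.967; 4 genes).

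Around the 8 genes, a list of 78 others of the pathway was examined, of which 75 were in the table and 68 were tested. In LPS against control 25 were called higher and 20 lower, and 23 were not called (66.2% called, against 63.4% of all genes tested), with a median log2 fold change of 0.14. Against LPS, LPS+RCMNs had 24 higher and 16 lower (58.8%, against 59.3%), with a median of -0.11. Against control, it had 9 higher and 1 lower (14.7%, against 7.56%), with a median of 0.04. The shares in the comparisons with the LPS group were near those of genes at large.

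**Figure D5:**
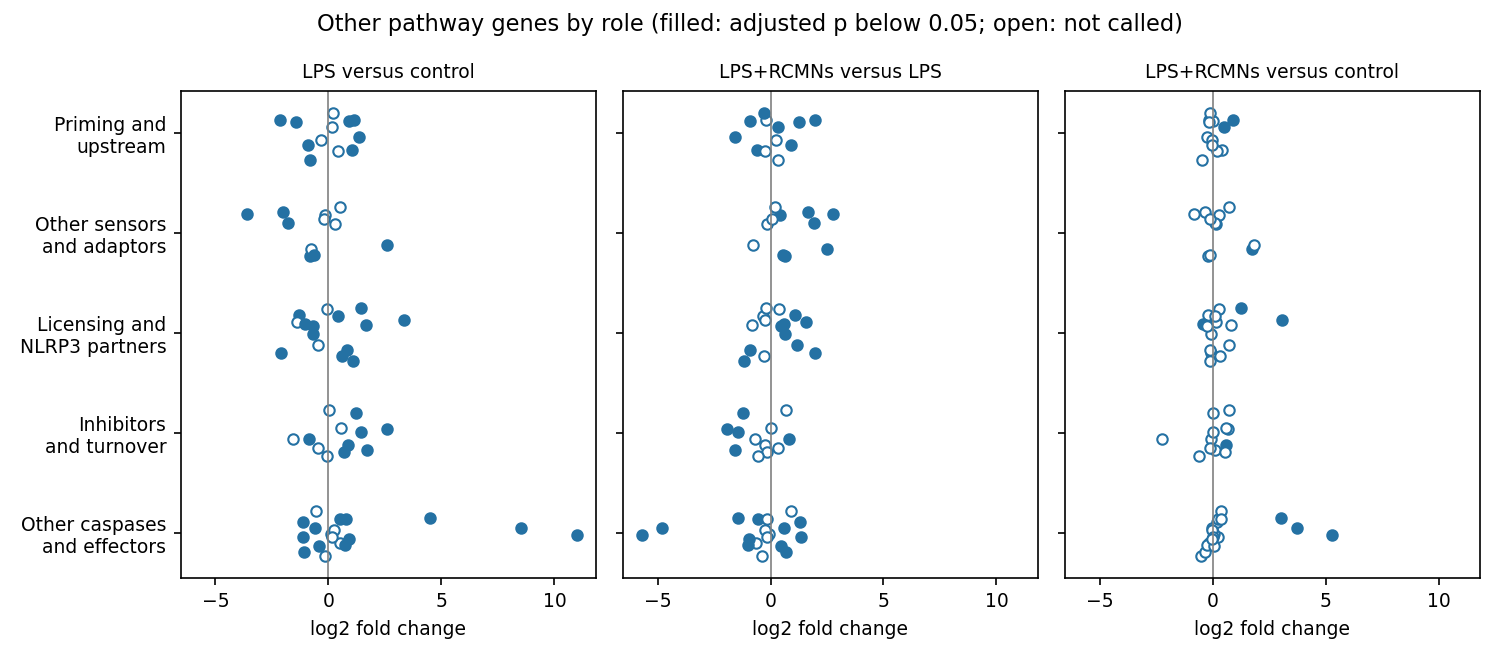
Log2 fold change of the 68 other pathway genes tested, 1 point per gene, by role and comparison, filled where called. The 3 points far to the right among the other caspases and effectors in LPS versus control are Il1b, Il1a and Il1rn.

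Of the 12 priming genes, 4 were called higher and 4 lower in LPS, and 4 in each direction in LPS+RCMNs against LPS, which is 66.7% called in each, near the 63.4% and 59.3% of all genes tested. Tlr4, the LPS receptor, was at 93.8 ± 24.9 CPM in control, 21.5 ± 0.76 in LPS and 85.1 ± 22.5 in LPS+RCMNs. It was thus lower in LPS than in control (-2.13 ± 0.28, adjusted p = 0.000138) and higher in LPS+RCMNs than in LPS (1.98 ± 0.27, adjusted p = 0.000231). Tlr4 is long (7840 bases against a median of 2827), and whether length had a part in its values was not tested. Of the 11 other sensors and adaptors, 5 were lower and 1 higher in LPS, and 7 were higher and none lower in LPS+RCMNs against LPS. Over all genes tested 31.4% were higher and 32.1% lower, and then 29.8% and 29.5%, in the 2 comparisons whose log2 fold changes ran with gene length. Whether length had a part in the direction of this set was not tested. Nlrp1b, a sensor of anthrax lethal factor, had 382, 774 and 800 counts in control, 31 and 51 in LPS and 407, 182 and 443 in LPS+RCMNs, with a log2 fold change of -3.59 ± 0.52 in LPS against control (adjusted p = 0.000271). It was 2.76 ± 0.51 higher in LPS+RCMNs than in LPS (adjusted p = 0.00134). Naip5, the flagellin receptor that feeds NLRC4, was called in none of the 3 comparisons (0.31, -0.17 and 0.14, adjusted p of 0.345 to 0.780), and without LPS replicate 1 it was called higher in LPS (0.78, adjusted p = 0.0169). The Nlrp1 and Naip genes have close copies in the mouse genome, so estimated counts could be split between them.

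Among 15 licensing genes and NLRP3 partners, 7 were higher and 5 lower in LPS (80.0% called, against 63.4% of all genes tested), and 7 were higher and 2 lower in LPS+RCMNs against LPS (60.0%, against 59.3%). P2rx7, the ATP-gated channel whose opening triggers NLRP3, was abundant at 1026 ± 183 CPM in control, 243 ± 27.2 in LPS and 963 ± 214 in LPS+RCMNs. Its log2 fold change was -2.08 ± 0.22 in LPS against control (adjusted p = 3.82e-05) and 1.99 ± 0.22 in LPS+RCMNs against LPS (adjusted p = 5.94e-05). Nek7, the kinase that bridges NLRP3 subunits, stood at 157 ± 11.1, 63.6 ± 3.1 and 135 ± 2.4 CPM, with changes of -1.31 ± 0.10 (adjusted p = 5.5e-06) and 1.09 ± 0.09 (adjusted p = 1.7e-05). Thus both genes were lower in LPS in every library while Nlrp3 itself was not called. P2rx7 (4422 bases) and Nek7 (4231) are longer than the median of 2827. Log2 fold change ran with gene length in both comparisons, and whether length had a part in their values was not tested. Guanylate-binding proteins open LPS-bearing membranes to caspase-11, and the 3 tested did not share 1 pattern. Gbp2 was 3.33 ± 0.46 higher in LPS than in control (adjusted p = 0.000210) and 3.07 ± 0.43 higher in LPS+RCMNs than in control (adjusted p = 0.00382), and -0.26 ± 0.39 in LPS+RCMNs against LPS (adjusted p = 0.597). Gbp3 had values of 1.45 ± 0.25 (adjusted p = 0.000743), 1.24 ± 0.23 (adjusted p = 0.0128) and -0.21 ± 0.24 (adjusted p = 0.476) in the same order. Gbp7, named after its values were seen, was not called in LPS against control (-0.48, adjusted p = 0.239) and was 1.19 higher in LPS+RCMNs than in LPS (adjusted p = 0.0127). The Gbp2 level was low in all groups (0.451 ± 0.12, 4.60 ± 1.7 and 3.85 ± 1.6 CPM).

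Of the 12 inhibitors and turnover genes, 6 were higher and 1 lower in LPS (31.4% and 32.1% over all genes tested), and 1 was higher and 4 lower in LPS+RCMNs against LPS (29.8% and 29.5% over all genes tested). Log2 fold change ran with gene length in both comparisons, and whether length had a part in these directions was not tested. Txn1, the thioredoxin that TXNIP binds, had the opposite order of group levels to Txnip: it was at 156 ± 8.0 CPM in control, 507 ± 55.7 in LPS and 169 ± 9.9 in LPS+RCMNs. This was a difference of 1.70 ± 0.10 in LPS against control (adjusted p = 2.09e-06) and of -1.59 ± 0.10 in LPS+RCMNs against LPS (adjusted p = 3.49e-06). Of the 18 other caspases and effectors, 7 were higher and 5 lower in LPS and 5 higher and 6 lower in LPS+RCMNs against LPS. These shares called, 66.7% and 61.1%, were near the 63.4% and 59.3% of all genes tested. Gsdme, another pore-forming gasdermin, was lower in LPS (5.21 ± 1.0, 2.42 ± 0.09 and 6.05 ± 0.33 CPM in control, LPS and LPS+RCMNs), by -1.10 ± 0.22 (adjusted p = 0.0019) and then 1.32 ± 0.22 higher in LPS+RCMNs (adjusted p = 0.000741). Ninj1, which ruptures the membrane after gasdermin pores form, was 0.78 ± 0.10 higher in LPS (adjusted p = 0.000126) and -0.54 ± 0.10 in LPS+RCMNs against LPS (adjusted p = 0.00123). With the length trend removed, Ninj1 was -0.11 and 0.33, so its direction depends on that choice. Casp8, a caspase that can act beside caspase-1, was called in none of the 3 comparisons (0.12, -0.08 and 0.04), but on TPM it was -0.845 and 0.82, close to the medians of all genes on that scale.

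The largest log2 fold changes of the list in LPS against control were those of Il1b, whose product caspase-1 matures, Il1a and Il1rn. Il1b had 1, 5 and 5 counts in the control libraries, 5854 and 5761 in LPS and 136, 126 and 154 in LPS+RCMNs. That is 0.169 ± 0.11, 352 ± 3.9 and 6.82 ± 0.53 CPM. Its log2 fold change was -5.69 ± 0.15 in LPS+RCMNs against LPS (adjusted p = 3.42e-07), and 10.99 ± 0.22 (adjusted p = 2.63e-08) in LPS and 5.30 ± 0.26 (adjusted p = 1.57e-05) in LPS+RCMNs against a control level that rests on these few counts. Il1a had 5, 3 and 4 counts in control, 1042 and 1244 in LPS and 53, 40 and 59 in LPS+RCMNs, with -4.79 ± 0.17 in LPS+RCMNs against LPS (adjusted p = 7.8e-07). Il1rn, the receptor antagonist, was at 32.8 ± 5.1, 733 ± 122 and 267 ± 76.1 CPM, which was 4.48 ± 0.25 higher in LPS than in control (adjusted p = 1.64e-06) and -1.46 ± 0.23 in LPS+RCMNs against LPS (adjusted p = 0.000552). It remained 3.03 ± 0.23 above control in LPS+RCMNs (adjusted p = 0.000163). Il18, the other caspase-1 cytokine, was called in none of the 3 comparisons (0.49, -0.66 and -0.17, adjusted p = 0.137, 0.0603 and 0.740), and was called higher in LPS without LPS+RCMNs replicate 2 (0.54, adjusted p = 0.0175).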

How the data were processed

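Gene expression was read from 1 table of 17518 genes with an estimated count (expected count), an FPKM and a TPM value per library, which the authors deposited. Of the deposited counts above 0, 77.8% were over 0.001 from a whole number. Build mm10 is per the submitters' processing notes. No source used here names the aligner, counter, annotation or strand setting. Another 4 per-sample columns match no sample label and were not used.

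Counts were rounded. edgeR 4.0.16 (R 4.3.3) filtered genes by filterByExpr, set TMM factors and ran its quasi-likelihood test on all 8 libraries in 3 groups. P-values were Benjamini-Hochberg adjusted over 11911 genes, with calls below 0.05. Prior degrees of freedom were 4.15 beside 5 residual, and the common coefficient of biological variation was 14.5%. At 3 counts, detection floors were 0.130 to 0.182 CPM, covering counting error only. limma 3.58.1 ran on log2(value + 1) of the deposited FPKM and TPM, and DESeq2 1.42.0 on counts. Length corrections removed a loess curve (span 0.4) per library. Only the edgeR steps were tested on simulated counts, with a fixed dispersion and without a length trend or libraries that stand apart. The limma and DESeq2 fits and the length corrections were not tested in this way.

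The members, the pathway list and its named genes (10 set ones, plus the 5 largest called changes per comparison) were chosen with earlier results of these data known. Names of pathway genes that differ in the table (Sting1 as Tmem173, Irgb10 as Gm12250) were matched through RefSeq synonyms. A few listed genes are not reported here.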

Additional observations from a re-analysis of the deposited data

How the results depend on the processing

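Over 21 alternatives the 8 genes gave 9 reversals, all under gene-length corrections or per-length scales. On log2(TPM + 1), an alternative chosen after seeing the data, the values in LPS against control were -0.60 for Pycard, -0.068 for Casp1, -0.83 for Gsdmd, -0.845 for Casp8 and -0.21 for Ninj1, and in LPS+RCMNs against LPS 0.59 for Gsdmd, 0.82 for Casp8 and 0.37 for Ninj1. On log2(FPKM + 1) they were -0.33 for Gsdmd and -0.345 for Casp8 in LPS against control, and 0.11 and 0.325 in LPS+RCMNs against LPS. With the length trend removed, Ninj1 was -0.11 and 0.33 and Gsdmd 0.14 in LPS+RCMNs against LPS. With length and level removed, Gsdmd was -0.37 and 0.19 and Ninj1 -0.19 and 0.40. Without both libraries that stood apart, P2rx7 (0.27) and Tlr4 (0.33) were called higher in LPS+RCMNs than in control. The cause was not tested.

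For the 8 genes in LPS against control, the number called higher was 2, and 1 with the fold minimum, with either length correction and on TPM, and 4 without both libraries that stood apart. It was 3 with median-ratio size factors and with DESeq2, and 2 to 3 with 1 control or LPS+RCMNs library left out. The number called lower was 2, and 1 with the fold minimum, with the stricter filter (which tested 7 members, without Nlrc4) and with the length trend removed, 4 on FPKM and 6 on TPM. It was 3 without both libraries that stood apart. It ranged from 1 to 2 when 1 library was left out. In LPS+RCMNs against LPS, the number called higher was 0, and 2 with only the groups compared, 1 with either length correction, 4 on FPKM, 4 without both libraries that stood apart and 6 on TPM, and from 0 to 2 with 1 library left out. The number called lower was 3, and 1 with the fold minimum, with either length correction and on TPM. It was 2 with the replicate block, no filter, the stricter filter and on FPKM, and 2 to 3 with 1 control or LPS+RCMNs library left out. Against control, the number called higher in LPS+RCMNs was 1, and 0 with only the groups compared, with the fold minimum, on FPKM and on TPM, and 2 without both libraries that stood apart. It ranged from 0 to 2 with 1 library left out. The number called lower was 0, and 1 with DESeq2 and 2 without both libraries that stood apart.

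Of the pathway list in LPS against control, 15 were higher and 11 lower with the fold minimum, and 8 and 38 on TPM. For LPS+RCMNs against LPS, 12 were higher and 9 lower with the fold minimum, and 44 and 6 on TPM. Against control, 22 were higher and 8 lower without both libraries that stood apart, 2 were lower on TPM, and 0 were lower with only the groups compared, the replicate block, the fold minimum, no filter, the stricter filter and either length correction. With 1 library left out, 4 to 17 were higher and 0 to 2 lower.

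Of all genes tested in LPS against control, 1774 were higher and 1845 lower with the fold minimum, 2113 and 5925 on FPKM, and 1020 and 8173 on TPM, and 2529 were lower with the length trend removed. For LPS+RCMNs against LPS, 1577 were higher and 1585 lower with the fold minimum, 5448 and 2117 on FPKM, 7947 and 963 on TPM, and 2342 and 2251 with length and level removed, and 2253 were higher with the length trend removed. Against control, 209 were higher and 105 lower with the fold minimum, 775 and 604 with DESeq2 and 1756 and 1261 without both libraries that stood apart, and 242 were lower with only the groups compared, 253 with no filter and 674 on TPM. With 1 library left out, 223 to 889 were higher and 99 to 483 lower.

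The replicate numbers of the titles were tested as a block. The deviations of same-numbered libraries correlated from -0.39 to 0.261, so the numbers were not taken to pair the samples. With the replicate block, Pycard in LPS+RCMNs against control (0.57, adjusted p = 0.0718 by edgeR) and Gsdmd in LPS+RCMNs against LPS (-0.32, adjusted p = 0.0657) were not called, which left 0 members higher against control. Against control the block gave 291 genes higher and 163 lower of all genes tested. With 2 LPS libraries, leaving out 1 leaves a lone library that is assumed to vary like the other groups. Depth limited the members little, since the fewest counts of any member in a library were 75.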

Other observations

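Genes of other death pathways, which share inputs with pyroptosis, were measured in the same libraries and are given as values. Casp9, the initiator caspase of the mitochondrial route of apoptosis, was lower in LPS than in control (log2 fold change -1.06, adjusted p = 0.00138 by edgeR) and 0.71 higher in LPS+RCMNs than in LPS (adjusted p = 0.0132). It was not called in LPS+RCMNs against control (-0.36, adjusted p = 0.252).

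Of the necroptosis genes, Mlkl, the membrane effector, was 0.53 higher in LPS (adjusted p = 0.00306) and not called in LPS+RCMNs against LPS (-0.14, adjusted p = 0.327). Ripk1, the kinase upstream, was lower in LPS (-0.41, adjusted p = 0.00451) and 0.47 higher in LPS+RCMNs than in LPS (adjusted p = 0.00228). Ripk3, its partner kinase, was called in neither (0.23 and -0.26, adjusted p = 0.104 and 0.0689). Per length, the mean of Mlkl was 21.35 FPKM in control and 22.15 in LPS, while the median of all genes on log2(FPKM + 1) was -0.33. The size of its difference thus depends on the scale. Ripk1 was lower in LPS on this scale too (20.2 FPKM in control and 10.7 in LPS). The alternatives were not read out for Casp9, Mlkl, Ripk1 and Ripk3, and whether gene length had a part in their values was not tested. These genes were not set out in the rule for named genes and were chosen after their values were seen.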
